A study of Homo sapiens and Mus musculus with 27 samples.

Results

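Laminins are the trimeric proteins that cells lay down as the first sheet of a basement membrane, and nidogen and agrin tie that sheet to other matrix and to the cell. The genes described here are 3 laminin alpha chains (LAMA3, LAMA4, LAMA5), 3 beta chains (LAMB1, LAMB2, LAMB3), the gamma chain LAMC1, the linker nidogen 1 (NID1) and the heparan sulfate proteoglycan agrin (AGRN). They were chosen by symbol, ignoring letter case, and all 9 were found among 59453 gene names in each human count table and among 55367 in the mouse table. RNA was counted in 27 libraries that form 9 groups of 3 replicates. LM2 is a human breast cancer line, a lung-metastatic derivative of MDA-MB-231, and 4T1 is a mouse mammary carcinoma line. Each line had a control group of WT genotype, a group that overexpressed wild-type MKL1 in the WT genotype, and a group that overexpressed caMKL1. In that last group the genotype is written as caMKL1 for replicate 1, caMKL2 for replicate 2 and caMKL3 for replicate 3, but title and treatment name caMKL1 for each, and they were taken as 1 group. A further 3 groups were LM2 cells of WT genotype that were negative for, low in or high in LifeAct, an actin filament reporter. The labels give no construct sequence, no promoter, and no word on clones or separate cultures, so p-values measure only the spread between these samples, which may be technical.

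In GRCh38, as the human count tables give it, the alpha chains lie at chr18:23689453-23956222 (LAMA3), chr6:112107931-112254939 (LAMA4) and chr20:62307955-62367312 (LAMA5). The beta chains lie at chr7:107923799-108003213 (LAMB1), chr3:49121114-49133118 (LAMB2) and chr1:209614870-209652425 (LAMB3). LAMC1 lies at chr1:183023420-183145592, NID1 at chr1:235975830-236065109 and AGRN at chr1:1020120-1056118. Counting used no strand option, so reads from overlapping genes cannot be told apart. Exons of LAMA5 share 244 bases with ADRM1 and 118 with LAMA5-AS1, both on the other strand, and those of LAMB1 share 300 bases with DLD and 184 with AC005046.1, out of 14291 and 18592 exon bases.

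A laminin is built inside the cell from 1 alpha, 1 beta and 1 gamma chain. The alpha chain carries the sites that integrins and dystroglycan bind, and the combination of chains names the trimer. LAMA3 pairs with LAMB3 in the laminin that anchors epithelia through hemidesmosomes, while LAMA4 and LAMA5 pair with LAMB1 or LAMB2 and with LAMC1. Nidogen binds the gamma chain and joins the laminin sheet to collagen IV, and agrin binds laminin and the dystroglycan of the cell surface. MKL1, also named MRTFA, is a coactivator of serum response factor (SRF) that monomeric actin holds out of the nucleus. SRF binds a DNA motif called the CArG box, MKL1 acts with it on genes of the actin cytoskeleton, and AP-1 factors bind the letters TGANTCA.

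The promoter stretch below is human and is shown because LAMB3 moved against the other members in the LifeAct groups. LAMA3 and LAMB3, the epithelial pair, were the members with a match to any motif searched. In the LifeAct groups LAMA3 fell where LAMB3 rose. The rise in 4T1 was of mouse Lamb3, and no mouse promoter was searched. In human LM2 cells LAMB3 did not pass in caMKL1 against control. RefSeq windows of 300 bases (250 before to 50 after a start, GRCh38.p14) were found for 8 of the 9 members, 10 windows in all, with 3 starts for LAMB3; AGRN had no entry. On both strands, 0 of the 10 windows held a CArG box, which 1.29% of 35116 promoter windows of the same length hold, and 0 of 10 held GGAATG, the core of TEAD binding motifs, against 14% of windows. TGANTCA was in 2 of 10, against 7.71% of all windows. Windows of 2 of the LAMB3 starts overlap, so the 10 are not separate, and no difference from that share was tested. LAMA3 held it at 2 places, and LAMB3 held it upstream of 1 of its 3 starts. The starts of both windows lie inside the gene's span given above, not at its outer end. The LAMA3 matches lie 125 and 69 bases before that internal start. The LAMB3 match lies 67 bases before its internal start, within chr1:209651405-209651471 (minus strand), printed 5′ to 3′ on the gene's strand with the match in capitals.
LAMB3 match: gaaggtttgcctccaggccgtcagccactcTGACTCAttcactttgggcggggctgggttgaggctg
The printed match overlaps none of the other motifs. A match describes letters only, and no binding was measured.

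Total counts lay between 22147429 and 32147377 per LM2 library and between 21896459 and 29370432 per 4T1 library, both polyA selected. LifeAct libraries, which were depleted of ribosomal RNA, held 15581289 to 23678322. Levels are CPM, counts scaled to library size by TMM within an experiment, with the SD over 3 replicates. Differences are log2 ratios with their standard error from edgeR's quasi-likelihood test, adjusted by Benjamini-Hochberg over all genes tested at 0.05; a member called is one past that threshold. The targeted gene MRTFA was at 10.8 ± 0.641 CPM in control cells of LM2, at 162 ± 20.3 with MKL1 and at 218.3 ± 41.5 with caMKL1, and Mrtfa at 39.2 ± 2.28, 2145 ± 56.2 and 624 ± 47.4 in 4T1, so every treated library lay above every control. In LifeAct negative, low and high cells MRTFA was at 28.3 ± 2.67, 33.6 ± 3.18 and 40.9 ± 2.42 CPM. By the same test its log2 ratios against negative cells were 0.24 ± 0.0766 (SE, adjusted p = 0.00889) and 0.53 ± 0.0753 (SE, adjusted p = 1.14e-07). Low and negative libraries overlapped, and high and negative ones did not. LM2 libraries had a coefficient of biological variation of 0.118, against 0.0345 for 4T1 and 0.0439 for LifeAct libraries, so the spread between replicates was widest in LM2. In LM2, counts of replicate 1 of the caMKL1 group differed from its other libraries with a chi-square per gene of 47.1 and 51.4, against 3.11 between those others. In the MKL1 group the values were 52.2 and 36.2 for pairs with replicate 1 and 21.3 for the other pair, and control pairs ran from 2.31 to 7.89. Mitochondrial shares of counts for replicates 1, 2 and 3 were 7.76%, 13.4% and 13.6% in caMKL1, and 6.18%, 9.87% and 7.11% in MKL1, where replicate 2 was the farthest off. LM2 results are given without both replicates 1 where they change. The epithelial markers EPCAM, KRT8, KRT18 and KRT19 were above 5 CPM in every group mean, Cdh1 stood at 670.2 CPM in 4T1 control, and CDH1 was under 1 CPM in all LM2 groups. Leukocyte markers summed to at most 3.36 CPM in every library.

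Most of the 9 genes were well expressed, and the chain makeup differed between the experiments. Compared per exon length (CPM per kilobase), the alpha chain was almost all Lama5 in 4T1 control cells, at 121.1 ± 6.08 against 1.96 ± 0.0191 for Lama3. In LM2 control cells LAMA3 and LAMA5 were near each other, at 3.27 ± 0.302 and 2.70 ± 0.236, and the gamma chain LAMC1 was the highest member, at 33.7 ± 2.59. In LifeAct negative cells, of the same line by label, LAMA5 and LAMB3 were highest per length, at 91.8 ± 5.37 and 94.6 ± 5.24. Without division by length LAMA5 was highest there, at 1312 CPM, and LAMB1, at 674, stood above LAMB3, at 440. LAMA4 and NID1 were the lowest members in all 9 groups.

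LAMA5 stood at 38.6 ± 3.37 CPM in LM2 control and at 1312 ± 76.7 CPM in LifeAct negative libraries, and AGRN at 42.2 ± 0.686 and 369.6 ± 18.2. These tables were scaled separately and differ in RNA selection, so the levels are set side by side and were not tested. The plot of levels by library shows each member over all 9 groups.

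**Figure D1:**
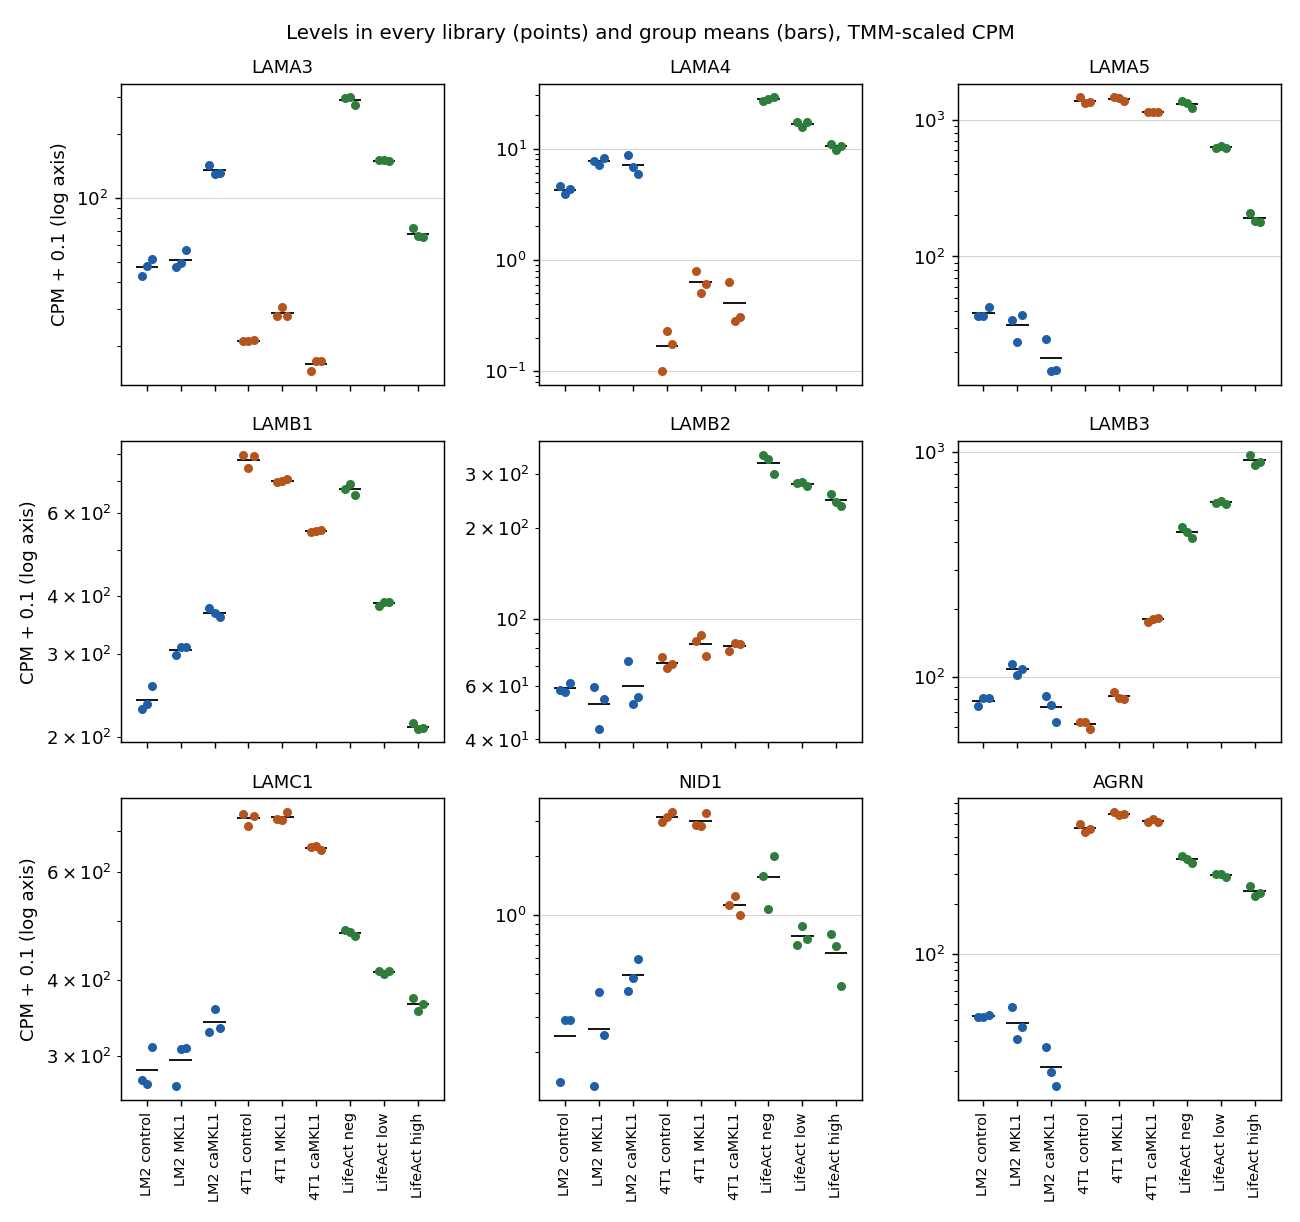
TMM-scaled CPM plus 0.1 (log axis) of each member in all 27 libraries, with points for libraries and bars for group means; groups are LM2 (blue), 4T1 (orange) and LM2 by LifeAct (green). In the LifeAct groups 8 members have their highest mean in negative libraries and LAMB3 has it in high libraries, while LM2 and 4T1 differ in which members move.

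The LifeAct groups asked how the genes differ with the level of the actin reporter. All 9 members passed the test in LifeAct low against negative cells, 8 lower and LAMB3 higher, where 49.7% of all 21869 genes tested were called, 25.9% higher and 23.7% lower. Negative and low libraries did not overlap for any of the 9, as for 56.3% of genes. In high against negative cells again 8 were lower and LAMB3 was higher, with a background of 71.1% called, 35.9% higher and 35.2% lower, and again no overlap for any of the 9, as for 71.7% of genes. The median log2 ratio of the 9 members was -0.74 in low and -1.40 in high cells, beside -0.01 and -0.03 over all genes. In high against low cells 7 members were lower and LAMB3 was higher, where 50.6% of genes were called, 26.8% higher and 23.8% lower, and 8 of 9 did not overlap, as for 57.8% of genes. The low and high groups share their negative libraries.

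All 3 alpha chains fell, and in high cells LAMA5 and LAMA3 had the lowest log2 ratios of the 9 members. LAMA5, the alpha chain of most adult basement membranes, stood at 1374, 1336 and 1226 CPM in negative libraries, 623, 642 and 617 in low and 207, 183 and 179.8 in high libraries. The 3 groups did not overlap, and LAMA5 fell with a log2 ratio of -1.06 ± 0.0446 (SE, adjusted p = 1.17e-19) in low and -2.79 ± 0.0479 (SE, adjusted p = 3.89e-31) in high cells, 6.90 times lower than in negative cells. LAMA3, the alpha chain of the hemidesmosomal laminin, stood at 296, 298 and 274 CPM, then 150.1, 151 and 149, then 71.8, 65.8 and 65.2 in the same order of groups. It too fell at both steps without overlap, with log2 ratios of -0.95 ± 0.0439 (SE, adjusted p = 3.27e-19) and -2.09 ± 0.0470 (SE, adjusted p = 3.07e-29) against negative cells. LAMA4, an alpha chain typical of vessels and mesenchyme, was low throughout, at 27.7 ± 1.03, 16.5 ± 0.931 and 10.4 ± 0.620 CPM, and fell with log2 ratios of -0.74 ± 0.0795 (SE, adjusted p = 9.62e-10) and -1.41 ± 0.0853 (SE, adjusted p = 1.11e-16). Between low and high cells the log2 ratios were -1.72 ± 0.0467 for LAMA5, -1.15 ± 0.0473 for LAMA3 and -0.67 ± 0.0891 for LAMA4, all past the threshold.

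The beta chains moved apart. LAMB1, the beta chain of the widespread laminins, stood at 673, 693 and 656 CPM in negative, 380.0, 387 and 387 in low and 214, 208 and 209 in high libraries. It fell with log2 ratios of -0.81 ± 0.0369 (SE, adjusted p = 2.06e-19) and -1.68 ± 0.0381 (SE, adjusted p = 4.01e-29). LAMB3, the partner of LAMA3, ran the other way, at 463, 441 and 414 CPM in negative, 597, 606 and 589 in low and 974, 878 and 907 in high libraries. No LAMB3 group overlapped another, and it rose with log2 ratios of 0.44 ± 0.0416 (SE, adjusted p = 4.50e-11) and 1.07 ± 0.0417 (SE, adjusted p = 4.30e-22), to 2.09 times its negative level. LAMB2, the beta chain of muscle and kidney basement membranes, changed least of the 3, from 328 ± 25.2 to 279 ± 4.54 and 246 ± 12.04 CPM, with log2 ratios of -0.24 ± 0.0455 (SE, adjusted p = 4.76e-05) and -0.41 ± 0.0458 (SE, adjusted p = 6.15e-10). As a share of the 3 beta members per exon length, LAMB3 made up 53.0 ± 0.506% in negative, 67.7 ± 0.0946% in low and 80.8 ± 0.462% in high libraries, and LAMB1 20.3 ± 0.824%, 10.9 ± 0.182% and 4.62 ± 0.158%. Without division by length the LAMB3 share was 30.5%, 47.4% and 66.8%, since the counted exons of human LAMB1 span 18592 bases against 4647 for LAMB3; the order of the groups was the same.

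LAMC1, the gamma chain of most laminins, stood at 482, 479 and 471 CPM in negative, 413, 408 and 414 in low and 373, 356 and 365 in high libraries. Its fall was small beside those of LAMA5 and LAMB1 but the groups did not overlap, with log2 ratios of -0.21 ± 0.0365 (SE, adjusted p = 8.35e-06) and -0.39 ± 0.0367 (SE, adjusted p = 1.58e-11). AGRN stood at 388, 369 and 352 CPM, then 303, 301 and 289.7, then 256, 224 and 231, and fell with log2 ratios of -0.31 ± 0.0447 (SE, adjusted p = 3.88e-07) and -0.64 ± 0.0451 (SE, adjusted p = 7.99e-15). NID1 had few reads, with 25, 15 and 31 counts in negative, 11, 13 and 15 in low and 16, 9 and 6 in high libraries. Its log2 ratios against negative cells were -1.11 ± 0.337 (SE, adjusted p = 0.00642) in low and -1.40 ± 0.352 (SE, adjusted p = 6.84e-04) in high cells, and the high against low ratio of -0.29 ± 0.392 (SE, adjusted p = 0.560) did not pass. Without replicate 3 of the negative group the NID1 ratio in low cells was -0.87 (adjusted p = 0.0642).

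The summed level of the endothelial markers moved with the LifeAct groups: the 5 markers summed to 96.9 to 100.3 CPM in negative, 35.5 to 37.5 in low and 13.96 to 15.9 in high libraries. PECAM1 carried most of the sum, at 92.5, 29.9 and 7.47 CPM, and VWF went from 3.36 to 2.54 and 2.03 CPM, while KDR went the other way, from 2.38 to 3.43 and 4.94 CPM. CDH5, which defines endothelium, was at 0.324, 0.174 and 0.142 CPM and TEK was under 1 CPM in all groups. The part of these markers in the result was not tested. No endothelial marker was at 0 in all libraries of a group. By label these libraries are all of the LM2 line. In bulk samples, fewer cells holding a transcript and less of it per cell cannot be told apart.

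**Figure D2:**
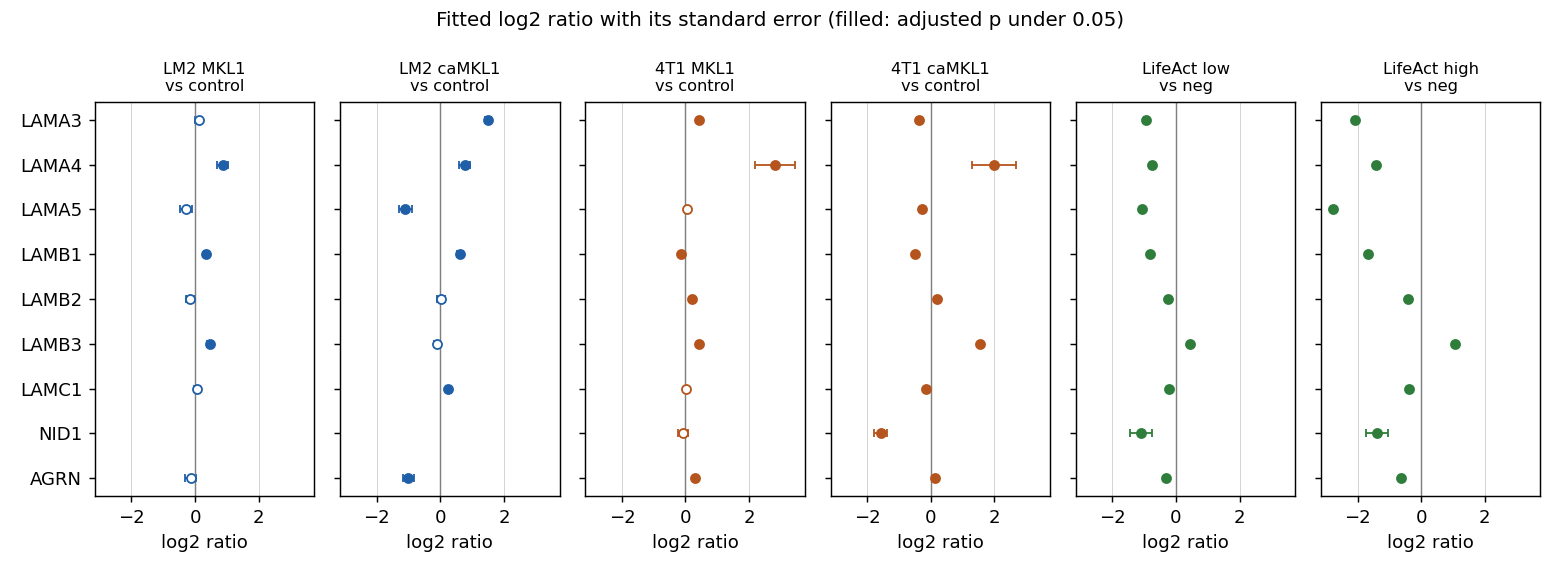
Fitted log2 ratio of each member (horizontal axis, bars for the standard error) against control or LifeAct negative cells; filled points passed the test at an adjusted p under 0.05. In LifeAct high cells LAMA5 lies at -2.79 and LAMB3 at 1.07; in caMKL1 cells LAMA3 lies at 1.51 in LM2 and LAMB3 at 1.55 in 4T1.

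In LM2 cells the control and MKL1 groups asked what added MKL1 does to the genes. Of 8 members tested, 3 were called, all higher, where 12.1% of 18893 genes were called, 7.29% higher and 4.76% lower, and the groups did not overlap for 3 members and for 32.2% of genes. NID1 failed the filter on low counts, with 1, 5 and 5 counts in control, 1, 7 and 5 in MKL1 and 8, 8 and 10 in caMKL1 libraries, and was not tested in this experiment. Against control, caMKL1 called 6 of 8 members, 4 higher and 2 lower, where 64.9% of genes were called, 31.9% higher and 33% lower, and the groups did not overlap for 6 members and for 71.3% of genes. Scaled by library totals the split was 2 higher and 3 lower. Over all genes that scaling moved the median log2 ratio of this comparison by -0.41 and the split from 6028 higher and 6242 lower to 4136 and 9273. The MKL1 and caMKL1 groups share their control libraries.

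The alpha chains responded in opposite directions to caMKL1. LAMA3 stood at 42.8, 47.5 and 51.6 CPM in control, 47.1, 49.2 and 56.9 in MKL1 and 144, 129.8 and 131 in caMKL1 libraries. The caMKL1 libraries lay above all others and LAMA3 rose 2.85 times, with a log2 ratio of 1.51 ± 0.101 (SE, adjusted p = 1.70e-09), while MKL1 gave 0.11 ± 0.1003 (SE, adjusted p = 0.521). LAMA5 stood at 36.4, 36.9 and 42.5 CPM in control, 34.03, 23.6 and 37.1 in MKL1 and 24.7, 14.4 and 14.8 in caMKL1 libraries. It fell in caMKL1 cells, with a log2 ratio of -1.10 ± 0.194 (SE, adjusted p = 1.35e-04), with replicate 1 the highest of its group, and without replicate 1 of the MKL1 and caMKL1 groups the ratio was -1.40 (adjusted p = 1.05e-05). LAMA4 was low, at 4.47, 3.80 and 4.19 CPM in control, 7.65, 7.02 and 8.08 in MKL1 and 8.65, 6.77 and 5.81 in caMKL1 libraries. Both treated groups lay above control, with log2 ratios of 0.87 ± 0.170 (SE, adjusted p = 0.00318) and 0.78 ± 0.173 (SE, adjusted p = 9.01e-04), the second of which was 0.38 (adjusted p = 0.103) with library totals. LAMA3 made up 51.7 ± 1.41% of the alpha members per exon length in control, 55.6 ± 4.29% in MKL1 and 83.6 ± 2.98% in caMKL1 cells, and LAMA5 42.8 ± 0.880%, 34.4 ± 4.53% and 11.1 ± 2.48%.

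Among the beta chains LAMB1 rose with both constructs. It stood at 229, 235 and 256 CPM in control, 298, 311.1 and 310.4 in MKL1 and 377, 366 and 360.5 in caMKL1 libraries, 3 groups that did not overlap. The log2 ratios were 0.35 ± 0.0827 (SE, adjusted p = 0.0106) and 0.62 ± 0.0829 (SE, adjusted p = 6.56e-06); the first was 0.32 (adjusted p = 0.0708) without control replicate 1 and 0.34 (adjusted p = 0.0663) without control replicate 2. With library totals the caMKL1 ratio was 0.21 (adjusted p = 0.0403). LAMB3 rose with MKL1 and was lower in caMKL1 than in MKL1 cells, at 74.1, 80.5 and 80.2 CPM in control, 113, 101 and 108.8 in MKL1 and 81.7, 75.0 and 63.0 in caMKL1 libraries. Its log2 ratios were 0.46 ± 0.0994 (SE, adjusted p = 0.00630) for MKL1 and -0.10 ± 0.09995 (SE, adjusted p = 0.417) for caMKL1 against control, and -0.56 ± 0.0998 (SE, adjusted p = 1.28e-04) for caMKL1 against MKL1. With library totals the caMKL1 ratio against control was -0.50 (adjusted p = 0.00184). LAMB2 passed in no LM2 comparison, at 59.0 ± 1.93, 52.4 ± 8.30 and 60.1 ± 10.9 CPM; its MKL1 ratio was -0.17 ± 0.129 (SE, adjusted p = 0.436), and -0.27 (adjusted p = 0.0392) without replicate 1 of the MKL1 and caMKL1 groups.

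AGRN fell in caMKL1 cells, from 41.8, 41.9 and 43.0 CPM in control to 27.5, 19.6 and 16.1, with 47.99, 31.01 and 36.4 in MKL1 libraries. Its log2 ratio for caMKL1 was -0.9984 ± 0.176 (SE, adjusted p = 1.28e-04), and for MKL1 -0.13 ± 0.171 (SE, adjusted p = 0.665), which was -0.32 (adjusted p = 0.0218) without replicate 1 of the MKL1 and caMKL1 groups. Without those 2 libraries 5 members were called in MKL1 against control, 3 higher and 2 lower. LAMC1 stood at 274, 270.1 and 309.8 CPM in control, 268, 308 and 309 in MKL1 and 329, 358.5 and 334 in caMKL1 libraries. Its caMKL1 ratio of 0.26 ± 0.0926 (SE, adjusted p = 0.0225) did not pass without caMKL1 replicate 2 (adjusted p = 0.0896), control replicate 1 (0.0931) or control replicate 2 (0.110), and was -0.15 with library totals. The epithelial markers summed to 351 to 369 CPM in LM2 control and 1607 to 1976 in caMKL1 libraries. The basal or mesenchymal markers summed to 1946 to 2003 and 7371 to 8209.9 CPM, with VIM from 1598 to 6292 and KRT17 from 0.143 to 1139. The smooth muscle markers summed to 35.3 to 37.97 and 264 to 317 CPM, which was mostly LMOD1, from 0.217 to 262, while MYH11 was at 2.02 and 2.07 CPM, SMTN at 33.99 and 33.2, and DES under 1 CPM. For all 3 lists, their part in the laminin result was not tested.

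Set against each other, caMKL1 and MKL1 cells of LM2 differed in 5 of 8 members, 2 higher and 3 lower, where 64.5% of genes were called, 32.6% higher and 31.9% lower, and the groups did not overlap for 5 members and for 65.9% of genes. With library totals 1 was higher and 3 lower. LAMA5 was called although its groups overlapped, at 24.7 CPM in caMKL1 replicate 1 and 37.1 to 23.6 CPM in MKL1 libraries. LAMC1 did not overlap and was not called. LAMA3 was higher in caMKL1 cells by 1.40 ± 0.101 (SE, adjusted p = 4.57e-09) on the log2 scale and LAMB1 by 0.26 ± 0.0826 (SE, adjusted p = 0.0107), the second of which was -0.07 with library totals and 0.21 (adjusted p = 0.0786) with no filter on low counts. LAMA5, AGRN and LAMB3 were lower, at -0.81 ± 0.194, -0.86 ± 0.175 and -0.56 ± 0.0998, and LAMB3 was -0.89 with library totals. LAMC1, at 0.21 ± 0.0925 (SE, adjusted p = 0.0605), passed without caMKL1 replicate 1 (adjusted p = 0.0490).

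In 4T1 cells MKL1 called 6 of 9 members, 5 higher and 1 lower, where 34.6% of 16297 genes were called, 19.4% higher and 15.2% lower, and the groups did not overlap for 6 members and for 44.2% of genes. With caMKL1 all 9 passed, 4 higher and 5 lower, where 72.1% of genes were called, 36.3% higher and 35.8% lower, and the groups did not overlap for all 9 members and for 73.7% of genes. Scaled by library totals, which moved the median over all genes by -0.18, 2 were higher and 5 lower. The median log2 ratio of the members was 0.22 with MKL1 and -0.16 with caMKL1, beside -0.0029 and -0.02 over all genes. Lamb3 rose with both constructs. It stood at 63.1, 62.9 and 58.7 CPM in control, 85.6, 80.5 and 79.4 in MKL1 and 176, 182 and 183 in caMKL1 libraries. No group overlapped another, and Lamb3 rose with log2 ratios of 0.41 ± 0.0405 (SE, adjusted p = 4.42e-10) and 1.55 ± 0.0385 (SE, adjusted p = 1.85e-27), to 2.92 times control with caMKL1.

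Lama3 rose with MKL1 and fell with caMKL1, at 21.0, 20.9 and 21.3 CPM in control, 27.5, 30.5 and 27.5 in MKL1 and 15.1, 16.9 and 17.0 in caMKL1 libraries. Its log2 ratios were 0.44 ± 0.0646 (SE, adjusted p = 1.37e-06) and -0.37 ± 0.0689 (SE, adjusted p = 1.76e-05). With library totals the caMKL1 ratios were -0.55 for Lama3 and -0.46 for Lama5. Lama5 stood at 1457, 1325 and 1355 CPM, then 1458, 1454 and 1377, then 1143, 1138 and 1135. It fell with caMKL1 (-0.28 ± 0.0297, adjusted p = 1.38e-09) and gave 0.05 ± 0.0297 (SE, adjusted p = 0.190) with MKL1, or 0.09 (adjusted p = 0.00566) without control replicate 1. Lama5 made up 98.4 ± 0.0851% of the alpha members per exon length in control, 97.9 ± 0.0997% in MKL1 and 98.5 ± 0.0837% in caMKL1 cells. Lama4 was close to the floor, with 0, 4 and 2 counts in control, 16, 10 and 11 in MKL1 and 12, 5 and 5 in caMKL1 libraries. Its log2 ratios of 2.81 ± 0.622 (SE, adjusted p = 4.67e-04) and 1.99 ± 0.692 (SE, adjusted p = 0.0109) rest on those counts; without control replicate 2 they were 3.64 and 2.82. The caMKL1 ratio was 1.39 (adjusted p = 0.128) without caMKL1 replicate 1 and 1.48 (adjusted p = 0.0636) without control replicate 1.

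Lamb1 fell with both constructs, the reverse of its course in LM2. It stood at 798, 748 and 792 CPM in control, 699, 701 and 709 in MKL1 and 547, 550.0 and 551 in caMKL1 libraries, with log2 ratios of -0.15 ± 0.0266 (SE, adjusted p = 2.98e-05) and -0.50 ± 0.0267 (SE, adjusted p = 5.25e-18). Lamb2 was higher in both treated groups, at 71.4 ± 2.92, 82.8 ± 6.68 and 81.4 ± 2.58 CPM, with log2 ratios of 0.22 ± 0.0476 (SE, adjusted p = 5.86e-04) and 0.19 ± 0.0474 (SE, adjusted p = 7.33e-04); with library totals the second was 0.01 (adjusted p = 0.889). Per exon length Lamb3 made up 9.36 ± 0.518% of the beta members in control, 12.8 ± 0.452% in MKL1 and 28.4 ± 0.206% in caMKL1 cells, and Lamb1 78.9 ± 0.598%, 73.2 ± 1.18% and 57.7 ± 0.471%. The plot of chain shares sets these beside the other groups.

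**Figure D3:**
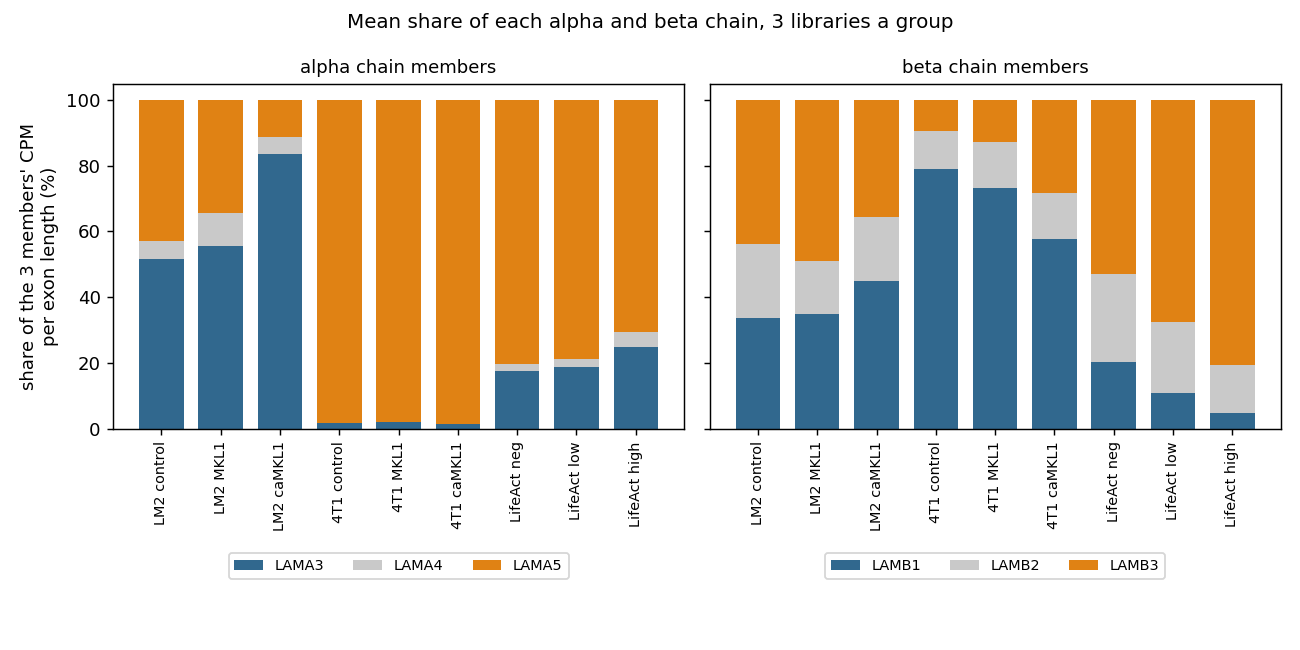
Mean share (vertical axis, percent) of each alpha member (left) and beta member (right) in the summed CPM per exon length of the 3 members of its class, over the 3 libraries of each group. LAMA3 takes 83.6% of the alpha members in LM2 caMKL1 cells and Lama5 takes 97.9% to 98.5% in the 4T1 groups, and LAMB3 takes 80.8% of the beta members in LifeAct high cells.

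Of the gamma chain and the linkers in 4T1, nidogen changed the most with caMKL1, and agrin with MKL1. Lamc1 stood at 747, 715 and 743 CPM in control, 733, 729.8 and 753 in MKL1 and 659, 661 and 653 in caMKL1 libraries, with log2 ratios of 0.01 ± 0.0259 (SE, adjusted p = 0.874) and -0.16 ± 0.0259 (SE, adjusted p = 1.49e-06). Nid1 stood at 2.87, 3.05 and 3.24 CPM, then 2.78, 2.74 and 3.20, then 1.02, 1.14 and 0.898. The caMKL1 libraries lay below all others and Nid1 fell 2.97 times, with a log2 ratio of -1.57 ± 0.198 (SE, adjusted p = 1.42e-08), while MKL1 gave -0.07 ± 0.167 (SE, adjusted p = 0.788). Agrn stood at 602, 538 and 565 CPM, then 709.7, 685 and 691, then 619, 645 and 621. It rose with log2 ratios of 0.29 ± 0.0314 (SE, adjusted p = 1.22e-08) and 0.15 ± 0.0314 (SE, adjusted p = 1.59e-04), though with library totals the second was -0.04. Against MKL1 cells, caMKL1 cells differed in 7 of 9 members, where 66.5% of genes were called, 33.7% higher and 32.8% lower, and the groups did not overlap for 7 members and for 70.1% of genes. Lamb3 was higher by 1.14 ± 0.0380 on the log2 scale, and Nid1, Lama3, Lamb1, Lama5, Lamc1 and Agrn were lower, from -1.50 ± 0.204 for Nid1 to -0.15 ± 0.0314 for Agrn. With library totals Lamc1 was -0.28 and Agrn -0.26 there, and against control caMKL1 gave -0.34 for Lamc1. Lama4, at -0.82 ± 0.481 (SE, adjusted p = 0.133), was -1.43 (adjusted p = 0.0330) without caMKL1 replicate 1, and Lamb2 was -0.14 (adjusted p = 0.0151) with library totals. In 4T1 the smooth muscle markers summed to 113 to 122 CPM in control and 603 to 606 in caMKL1 libraries, with Myh11 from 0.241 to 187 CPM. The epithelial markers summed to 2133 to 2192 and 4455 to 4652 CPM. Epcam was lower, from 217 to 71.7 CPM, while Cdh1, Krt8, Krt18 and Krt19 were each higher. The part of both lists in the result was not tested.

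The response to caMKL1 differed between the lines in 6 of the 8 members tested in both, by an interaction test in 18 libraries over 10361 genes matched by symbol, of which 70.3% were called, 35.7% higher in 4T1 and 34.5% lower. LAMA3 had the largest difference, with a 4T1 response minus LM2 response of -2.01 ± 0.125 (SE, adjusted p = 2.12e-11) on the log2 scale. LAMB3 had the opposite sign, at 1.51 ± 0.103 (SE, adjusted p = 9.23e-11). LAMB1 and LAMC1 responded lower in 4T1, at -1.25 ± 0.0800 (SE, adjusted p = 3.21e-11) and -0.55 ± 0.0999 (SE, adjusted p = 6.43e-05), the second of which was -0.21 (adjusted p = 0.0470) with library totals. AGRN and LAMA5 responded higher, at 1.01 ± 0.184 (SE, adjusted p = 6.64e-05) and 0.69 ± 0.210 (SE, adjusted p = 0.00664). LAMB2 gave 0.03 ± 0.147 (SE, adjusted p = 0.866) and LAMA4 1.07 ± 0.691 (SE, adjusted p = 0.174). Neither passed, which does not show that the lines act alike. LAMA3 rose with caMKL1 in LM2 and fell in 4T1, while LAMB3 rose in 4T1 and did not pass in LM2.

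**Figure D4:**
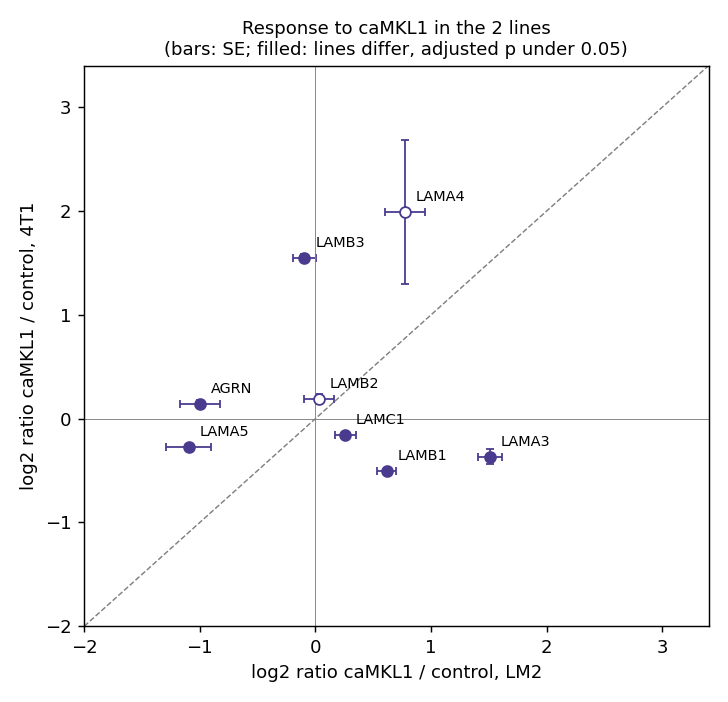
Log2 ratio of caMKL1 to control in LM2 (horizontal) and 4T1 (vertical) for the 8 members tested in both lines. Ratios and standard errors come from the fits within each line. The dashed line marks equal responses and filled points differ between lines in the interaction test. That test scaled both lines together, so its differences do not equal the distances shown. LAMA3, at 1.51 in LM2 and -0.37 in 4T1, and LAMB3, at -0.10 and 1.55, lie farthest from the dashed line among the filled points.

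For MKL1 the lines differed in 2 of 8 members, where 25.7% of genes were called, 13% higher in 4T1 and 12.7% lower. LAMB1 responded lower in 4T1, at -0.50 ± 0.0797 (SE, adjusted p = 1.53e-04), and LAMA4 higher, at 1.93 ± 0.635 (SE, adjusted p = 0.0305). The LAMA4 difference did not pass without 4T1 control replicate 1 (adjusted p = 0.108), 4T1 control replicate 3 (0.0687) or 4T1 MKL1 replicate 1 (0.0903). Without replicate 1 of the LM2 MKL1 and caMKL1 groups 4 members were called, with AGRN at 0.58 (adjusted p = 1.06e-05) and LAMB2 at 0.45 (adjusted p = 0.00154) added; each also passed without LM2 MKL1 replicate 1 or LM2 caMKL1 replicate 1 alone, and LAMB2 without 4T1 MKL1 replicate 3. LAMA3, at 0.32 ± 0.123 (SE, adjusted p = 0.0586), passed without LM2 control replicate 1 (adjusted p = 0.0294) or LM2 MKL1 replicate 3 (0.00915).

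The genes that work beside the members were read from 6 lists: other laminin chains, other basement membrane components, laminin and agrin receptors, hemidesmosome and dystroglycan-side partners, enzymes of the dystroglycan sugar that binds laminin, and enzymes that cleave or cross-link laminin. Each gene said to rise or fall below passed the test. No list was tested as a set. LAMA1, an alpha chain of early development, rose from 2.04 ± 0.0916 CPM in LifeAct negative to 6.89 ± 1.05 in low and 16.1 ± 2.49 in high libraries, with log2 ratios of 1.75 and 2.97 (adjusted p = 9.35e-19 for high). In LM2 it was lower with caMKL1, at 2.14 against 4.68 CPM in control. LAMA2 and LAMB4 are named after their values were seen. LAMA2, the alpha chain of muscle, fell from 5.49 CPM in LifeAct negative to 3.33 in low and 4.31 in high cells and rose in LM2 from 1.28 to 2.44 CPM with caMKL1. LAMB4 was under 1 CPM in the LifeAct groups and passed in neither comparison with negative cells. It was higher in high than in low cells, at 0.667 against 0.246 CPM. With caMKL1 in LM2 LAMB4 rose from 0.103 to 1.40 CPM, on 2, 3 and 3 counts in control libraries.

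Of the other basement membrane components, 11 of 20 tested were lower and 7 higher in LifeAct high against negative cells, with a list median log2 ratio of -0.35 beside -0.03 over all genes. Over all genes, 35.2% were lower and 35.9% higher in that comparison. With caMKL1, 31.9% of genes were higher and 33% lower in LM2, and 36.3% and 35.8% in 4T1. COL18A1, a collagen of basement membranes, fell from 182 to 114 and 68.4 CPM over LifeAct negative, low and high cells. In LM2 caMKL1 cells 9 of 19 were higher and 6 lower, with a list median of 0.30 beside -0.05 over all genes, but 5 higher and 8 lower, with -0.10, when scaled by library totals. In 4T1 caMKL1 cells 10 of 16 were higher and 5 lower under both scalings, with a list median of 0.64 beside -0.02 over all genes. COL4A1, a chain of collagen IV, rose in LM2 from 67.2 to 142 and 234 CPM over control, MKL1 and caMKL1, and Col4a1 rose in 4T1 from 1023 to 2113 CPM with caMKL1. HMCN1, a large matrix protein of basement membranes, rose in LM2 from 9.34 to 94.3 CPM with caMKL1, and Sparc, which binds collagen IV, rose in 4T1 from 356 to 1026 CPM.

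Of the receptors for laminin and agrin, 8 of 16 were lower and 4 higher in high against negative cells. Of all genes, 35.2% were lower and 35.9% higher there. ITGA1, the alpha1 integrin of collagen and laminin, fell from 489 to 144 and 92.6 CPM, and ITGB4, the integrin chain of hemidesmosomes, from 434 to 177 and 82.5. SDC4, a cell-surface heparan sulfate proteoglycan, rose from 189.8 to 550.2 CPM in high cells. In LM2, ITGA1 rose with both constructs, from 87.7 to 233 and 1675 CPM. With caMKL1, 6 of 16 receptors were higher and 6 lower, beside 31.9% and 33% of all genes, or 6 and 8 with library totals. MCAM, which binds LAMA4-containing laminin, rose with caMKL1 from 70.3 to 379 CPM in LM2, and Mcam from 24.6 to 689 CPM in 4T1. Itga3, a chain of the main epithelial laminin integrin, fell in 4T1 from 1615 to 584 CPM with caMKL1. There 7 of 15 receptors were higher and 8 lower, beside 36.3% and 35.8% of all genes, or 5 and 8 with library totals.

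Hemidesmosome and dystroglycan-side partners were higher in 1 of 8 and lower in 4 in LifeAct high cells, higher in 3 of 8 and lower in 4 in LM2 caMKL1 cells, and higher in 4 of 7 and lower in 1 in 4T1 caMKL1 cells, which with library totals became 2 higher and 3 lower in 4T1 and 2 and 5 in LM2. Over all genes, 35.9% were higher and 35.2% lower in LifeAct high against negative cells. With caMKL1 these shares were 31.9% and 33% in LM2, and 36.3% and 35.8% in 4T1. COL17A1, a transmembrane collagen of hemidesmosomes, was the 1 gene of the hemidesmosome list that rose in LifeAct high cells, from 20.3 to 37.4 CPM. Plec, a linker of hemidesmosomes to keratin, rose from 699 to 1114 CPM in 4T1 caMKL1 cells. PLEC went the other way in LM2, from 337 CPM in control to 151 in caMKL1 libraries. Sugar enzymes of dystroglycan were higher in 7 of 13 and lower in 5 in LifeAct high cells, higher in 3 of 12 and lower in 6 in LM2 caMKL1 cells, and higher in 7 of 12 and lower in 5 in 4T1 caMKL1 cells. With library totals the LM2 counts were 3 and 8 and the 4T1 counts 6 and 5. Of the enzymes that cleave or cross-link laminin, 4 of 5 were lower in LifeAct high cells, 2 of 6 were higher and 3 lower in LM2 caMKL1 cells, and 5 of 6 were higher and 1 lower in 4T1 caMKL1 cells; library totals gave 1 and 3 in LM2 and 4 and 1 in 4T1. MMP14, a membrane protease that cuts laminin, fell from 1228 to 767 and 444 CPM. With caMKL1, LM2 cells lowered MMP14 from 198 to 123 CPM, and 4T1 cells raised Mmp14 from 272 to 480.3 CPM. Bmp1, a protease that trims laminin chains, was the gene of this list that fell in 4T1, from 413 to 143 CPM.

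The members did not share one pattern over the 9 groups. With each experiment's mean taken out, log2 levels of LAMA3 and LAMC1 had a Pearson correlation of 0.974 and LAMB1 and LAMC1 one of 0.942, while LAMB3 ran against LAMC1, at -0.757, and AGRN was near 0 with LAMC1, at -0.0776; NID1 was left out. Among 7890 genes compared over the 9 groups in the same way, the nearest pattern was that of SLC6A6 for LAMA3 (0.995), TM4SF1 for LAMA4 (0.925), ANO8 for LAMA5 (0.990), PHKA1 for LAMB1 (0.983), FYCO1 for LAMB2 (0.975), MED29 for LAMB3 (0.992), ABHD17C for LAMC1 (0.986) and ZNRF1 for AGRN (0.993). The 9 points come from 3 experiments whose groups share controls and depth, so these values describe likeness and carry no test.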

How the data were processed

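RNA of 27 libraries was sequenced as paired reads. The authors deposited raw counts per gene, made with featureCounts 2.0.1 on exons grouped by gene name, with no strand option, over Ensembl 103 (GRCh38) or Ensembl 102 (GRCm38), per the file headers; the aligner was STAR, per the file headers, with its version not given in the sources used. The submitters' processing notes also name DESeq2. Counts were tested with edgeR 4.0.16 in R 4.3.3 (quasi-likelihood F test, TMM scaling, the filterByExpr filter with a minimum count of 10, prior count 0.125), within each experiment over its 9 libraries, with Benjamini-Hochberg adjustment at 0.05 over all genes tested. The difference between lines was an interaction term over 18 libraries, with both lines scaled together. It therefore need not equal the gap between ratios of the separate fits. For LAMC1 with caMKL1 the joint fit gave 0.32 in LM2 and -0.23 in 4T1, against 0.26 and -0.16 in the separate fits. Standard errors are the log2 ratio over the square root of F. CPM per kilobase used the exon lengths of the tables, and depth is the total count of each library. On simulated counts, 90.5% of 200 genes changed 2-fold were recovered in LM2 MKL1 against control (17679 genes), 99% in 4T1 (15456) and 99% in LifeAct low against negative (20771), and false calls were 9.95%, 7.04% and 9.17% of calls, above the nominal level of 0.05. The changed genes were drawn from well-counted genes and no other gene was changed. These rates therefore do not cover members with few reads, nor comparisons in which most genes were called. Alternatives were library totals, DESeq2 1.42.0 and its size factors, limma 3.58.1 voom, no filter, a replicate block, and leaving out each library or both LM2 replicates that stood apart. Named genes outside the members were up to 3 of each list per comparison, those of smallest p among genes called with a mean of at least 5 CPM, plus the markers. The members and lists were chosen with earlier results of these data known. One gene of the lists is not reported here.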

Additional observations from a re-analysis of the deposited data

Results flagged for a closer look

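The response to caMKL1 differed between 4T1 and LM2 in 6 of 8 members, by the interaction test of edgeR with Benjamini-Hochberg adjustment. Over all 10361 genes tested, 70.3% were called, so the member count is near the share of all genes. As the 4T1 response minus the LM2 response on the log2 scale, LAMA3 stood at -2.01, LAMB3 at 1.51, LAMB1 at -1.25, AGRN at 1.01, LAMA5 at 0.69 and LAMC1 at -0.55. The response to MKL1 differed in 2 of 8 members, LAMA4 at 1.93 and LAMB1 at -0.50, where 25.7% of all genes were called. LAMB1 is the member on both lists: it rose in LM2 and fell in 4T1 with each construct, although its LM2 caMKL1 ratio went from 0.62 to 0.21 with library totals. The LAMC1 difference went from -0.55 to -0.21 with that scaling. The LAMA4 value rests on 0 to 4 counts in each 4T1 control library.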

How the results depend on the processing

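Of 1607 values of the members under the alternatives, 1551 kept their direction and their side of the threshold, 14 no longer passed, 20 newly passed and 22 changed direction. In the LifeAct experiment 1 of 432 was not kept (NID1). Without division by exon length, 39 mean chain shares moved by more than the SD of their group and 15 did not. The LAMB3 share in LM2 control went from 43.9% to 20.8%. Scaling by library totals turned LM2 MKL1 LAMC1 to -0.0243, LM2 caMKL1 against control LAMB2 to -0.37 and LAMC1 to -0.15, LM2 caMKL1 against MKL1 LAMB1 to -0.0692, LAMB2 to -0.13 and LAMC1 to -0.13, 4T1 MKL1 Lama5 to -0.0146 and Lamc1 to -0.0598, and 4T1 caMKL1 Agrn to -0.0373. No filter turned 4T1 MKL1 Lamc1 to -0.0035. Without replicate 1 of the LM2 MKL1 and caMKL1 groups LAMB2 in LM2 caMKL1 against control was -0.13, 5 members in place of 3 and 2921 genes in place of 2277 were called in LM2 MKL1 against control, and 4 in the MKL1 response between lines in place of 2. Leaving out 1 library, all genes called in LM2 MKL1 against control ran from 1107 to 2702 around 2277, with 1292, 1259 and 1107 without control replicate 1, 2 and 3, and members called in the MKL1 response between lines from 1 to 4. Over the same fits AGRN in LM2 MKL1 ran from -0.32 to 0.0474, LAMB2 in LM2 caMKL1 against control from -0.13 to 0.12, LAMB3 there from -0.18 to 0.0085, LAMA4 in LM2 caMKL1 against MKL1 from -0.27 to 0.0303, Lamc1 in 4T1 MKL1 from -0.0138 to 0.0185, Lamb2 in 4T1 caMKL1 against MKL1 from -0.0800 to 0.0231, and LAMB2 in the caMKL1 response between lines from -0.0833 to 0.14. The cause was not tested. Library totals split all genes called, higher and lower, as 923 and 1261 in LM2 MKL1 against control (1378 and 899 by TMM), 4429 and 8638 in LM2 caMKL1 against MKL1 (6150 and 6036), 2336 and 3892 in 4T1 MKL1 (3164 and 2482), 4527 and 7565 in 4T1 caMKL1 against control (5910 and 5835) and 4661 and 6450 in LifeAct high against low (5850 and 5210).

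The replicate numbers were not taken to pair the libraries, since the labels give no shared source. Correlations of deviations from group means did not settle it. In LM2, same-numbered pairs ran from 0.00304 to 0.297 and other pairs from -0.317 to 0.177. The ranges were -0.0366 to 0.216 and -0.141 to 0.0797 in 4T1, and -0.0330 to 0.00202 and -0.0311 to 0.0448 in LifeAct. Same-numbered pairs over 0.1 were 3 of 9 in LM2, 3 of 9 in 4T1 and 0 of 9 in LifeAct. In the same order, 4 of 9, 4 of 9 and 0 of 9 libraries correlated best with their own number in both other groups. In 4T1 the 3 pairs over 0.1 were those of replicate 3, so a shared source of some numbers was not settled. With the replicate block 3266 genes were called in LM2 MKL1 against control in place of 2277, with 3 members called in both fits, and LAMC1 in LM2 caMKL1 against MKL1 passed at 0.21 (edgeR, adjusted p = 0.0431). That value also passed with DESeq2 (adjusted p = 0.0294) and limma voom (adjusted p = 0.0461). Few reads limit NID1 in the human tables and Lama4 in 4T1.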
